A study of Homo sapiens with 3 samples.

Results

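The polo-like kinases are serine/threonine kinases of the cell division cycle, named after the Drosophila gene polo and marked by polo boxes, with which PLK1, PLK2 and PLK3 dock onto phosphorylated partners. PLK1 drives entry into mitosis, spindle assembly, chromosome segregation and cytokinesis, and it accumulates in late G2 and M phase. PLK4 is the kinase that starts centriole duplication. PLK2 and PLK3 were first described as early-response genes, switched on within hours of serum, growth factors or cellular stress, and PLK2 is a known p53 target. PLK1 and the pair PLK2 and PLK3 therefore belong to different programmes, a division programme and a stress and growth-factor programme.

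Members were all probe sets of the array whose single gene symbol was PLK1, PLK2, PLK3 or PLK4. They were 4 of 19775 genes, read by 8 of 54675 probe sets, with 1 probe set each for PLK1 and PLK2 and 3 each for PLK3 and PLK4. The 4 genes were chosen by family name, with the differences between these same arrays already known, so that the values below are a description and carry no test. The cells were SKBR3, a human breast cancer cell line in which ERBB2 is amplified and oestrogen receptor α is known to be missing. They spent 4 h with 10% charcoal-stripped serum, from which steroid hormones have been removed, and then received 1 µM estradiol, 1 µM ERα17p, a peptide taken from oestrogen receptor α, or 0.1% ethanol as vehicle, each for 3 h. The labels name no solvent for the peptide. With 1 array per condition (3 arrays), differences have no replicate error and no p-value, and the number of arrays limits the precision.

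Values are log2 units (the base is assumed) relative to a per-probe-set baseline set by the authors. They allow differences between arrays and no expression levels, so neither the level of any gene nor the presence of SKBR3 marker genes can be read. "Higher" and "lower" mean a difference of at least 1.5-fold, which is 0.585 in log2 units. Of the probe sets on the array labelled vehicle, which differed most from the baseline, 1468 lay at least that far above the baseline and 249 below, against 28 and 24 with estradiol and 26 and 16 with ERα17p. The 3′ probe set of a gene minus its 5′ probe set changes between arrays with how intact the RNA is. With centred values only that change can be read, and not how intact the RNA of any array was. For ACTB the difference stood at 0.02 on the estradiol array, -0.04 on the ERα17p array and 0.30 on the array labelled vehicle. For GAPDH the same difference was 0.010, -0.027 and 0.046 on the estradiol, ERα17p and vehicle arrays. The part of RNA quality in the differences from that array was not tested. Of the 13 luminal and ERBB2-linked marker genes, 0 passed 1.5-fold in any comparison, and the same held for 5 leukocyte, 6 fibroblast and 4 endothelial markers analysed here. Among all genes 2.93% were lower and 0.809% higher with estradiol, and 2.14% and 0.582% with ERα17p, than on the vehicle array. Between estradiol and ERα17p the shares were 0.207% and 0.147%. With shares this low, nothing is read from counts of 0 in such short lists.

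The sequence just before each gene's start is shown for 150 bases, because PLK1 carries letters known from promoters of division genes and the others differ from it there. They are RefSeq sequences of GRCh38.p14, read 5′ to 3′ on the gene's own strand and ending at the base before the annotated start. PLK1 lies on chr16:23678889-23690367 (+), and its window is chr16:23678739-23678888. PLK2 lies on chr5:58453982-58460086 (-), with the window chr5:58460087-58460236. PLK3 lies on chr1:44800377-44805990 (+), with the window chr1:44800227-44800376. PLK4 lies on chr4:127880893-127899224 (+) and has 3 annotated starts, of which the first is shown, with the window chr4:127880743-127880892. Capitals mark the cell cycle genes homology region (CHR) letters TTTGAA or TTTAAA, the CCAAT box and TGACG, the core of the cyclic AMP response element, on either strand.
PLK1: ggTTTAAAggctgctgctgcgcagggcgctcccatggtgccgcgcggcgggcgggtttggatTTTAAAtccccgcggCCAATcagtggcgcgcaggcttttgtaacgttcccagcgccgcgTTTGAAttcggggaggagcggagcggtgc
PLK2: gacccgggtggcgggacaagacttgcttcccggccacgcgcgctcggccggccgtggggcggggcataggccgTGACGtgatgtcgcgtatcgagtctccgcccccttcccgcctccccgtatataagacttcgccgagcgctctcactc
PLK3: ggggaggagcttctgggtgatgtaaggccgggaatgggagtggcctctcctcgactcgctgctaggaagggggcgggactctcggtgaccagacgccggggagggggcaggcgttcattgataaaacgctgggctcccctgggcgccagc
PLK4: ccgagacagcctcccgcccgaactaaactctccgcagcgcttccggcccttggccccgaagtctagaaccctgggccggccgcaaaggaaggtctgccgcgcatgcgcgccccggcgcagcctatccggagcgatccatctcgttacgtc

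Within the 250 bases before its start, PLK1 held TTTGAA at 29 to 24 bases before the start, CCAAT at 73 to 69 bases, and TTTAAA at 88 to 83 and at 148 to 143 bases. Of all 35116 promoters in the table, 13.3% held TTTGAA or its reverse complement TTCAAA in the same 250 bases, 11.3% held TTTAAA, and 32% held CCAAT or ATTGG. The CHR and the CCAAT box are known from promoters of genes expressed late in the cell cycle. Of 23 promoters of late G2 and M genes in the table, from a list given further below, 12 (52.2%) held TTTGAA or TTCAAA and 19 (82.6%) held the CCAAT box. PLK2 had no CHR letters in its window and held TGACG at 77 to 73 bases before the start. TGACG or CGTCA was found in 21.2% of all promoters. It stood in 15 of 26 promoters (57.7%) of immediate early genes and in 10 of 23 (43.5%) of late G2 and M genes. The 26 promoters belong to 21 genes, some with more than 1 start, and the 23 promoters to 23 genes. In the 26 promoters of immediate early genes, TTTGAA or TTCAAA stood in 4 (15.4%) and the CCAAT box in 10 (38.5%). TTTAAA stood in 8 of 23 promoters (34.8%) of late G2 and M genes and in 2 of 26 (7.69%) of immediate early genes. PLK3 and the first start of PLK4 held none of the marked motifs in the 250 bases. At the third of its starts PLK4 held ATTGG, at 86 to 82 bases before that start, and 39 to 44 bases after its first start it held TTCAAA, in a 50-base stretch searched after the other results were seen (2.17% of promoters hold it there). The GC box GGGCGG or CCGCCC was present in all 6 windows of 250 bases, and in 42.6% of all promoters. It stood in 19 of 23 promoters (82.6%) of late G2 and M genes and in 17 of 26 (65.4%) of immediate early genes. The full element TGACGTCA (1.65% of promoters) and the AP-1 letters TGACTCA or TGAGTCA (4.2%) were found in no window of the 4 genes. The same held for the NF-kB half-site letters GGGACTTT (0.991%) and GGGAATTT (0.943%), with their reverse complements. At such low shares nothing is read from their absence, and other forms of NF-kB sites were not searched. TGACG is contained in TGACGTCA. These matches are letters in a sequence and not measured binding sites.

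PLK2 (probe set 201939_at) was the member with the widest difference. It stood at 0.19 log2 units from the baseline with estradiol and at 0.14 with ERα17p, against 2.52 on the array labelled vehicle. Both treated arrays thus lay near the baseline and near each other, and the array labelled vehicle lay far above. PLK2 was lower by 5.02-fold with estradiol (-2.33 log2 units) and by 5.22-fold with ERα17p (-2.38) than on that array. After quantile normalization over the 3 arrays the differences were -0.95 and -1.04, still past 1.5-fold. That scaling gives the 3 arrays the same spread. Over all probe sets the array labelled vehicle had the widest, a standard deviation of 0.27 against 0.12 with estradiol and 0.13 with ERα17p. Its wide deviations are therefore narrowed, and those of the other arrays widened, by construction. Without that scaling, PLK2 ranked 59th from the lowest with estradiol and 37th with the peptide among 54613 probe sets other than controls. Between estradiol and ERα17p the difference was 0.06.

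PLK3, the other early-response member, was read by 3 probe sets that did not run alike. Probe set 204958_at, which is tied to the RefSeq transcript of the gene, had -0.0002 on the estradiol array, -0.27 on the ERα17p array and 0.71 on the array labelled vehicle. It was lower by 1.64-fold with estradiol (-0.71) and by 1.97-fold with ERα17p (-0.98). Probe set 215462_at had -0.14, 0.00 and 0.46 on the estradiol, ERα17p and vehicle arrays, so that it was lower with estradiol (-0.60) and did not pass 1.5-fold with ERα17p (-0.45). Probe set 229825_at was -0.14 with estradiol, -0.01 with ERα17p and -0.27 on the array labelled vehicle, with differences of the opposite sign (0.13 and 0.26). The platform annotation lists no accession for 215462_at or 229825_at. With the median over its probe sets as the value of the gene, PLK3 differed by -0.60 with estradiol and -0.47 with the peptide. That median is 215462_at on the array labelled vehicle and 229825_at on both other arrays, so that it follows no single probe set. After quantile normalization over the 3 arrays, 204958_at had -0.44 with estradiol and -0.73 with ERα17p, and 215462_at had -0.50 and -0.31, so that 204958_at with ERα17p alone passed 1.5-fold among these.

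PLK1, the mitotic member (probe set 202240_at), differed the other way. It stood at -0.04 with estradiol and -0.03 with ERα17p, against -0.65 on the array labelled vehicle, where it was the only one of the 8 probe sets more than 0.585 below the baseline. PLK1 was higher by 1.52-fold with estradiol (0.60) and by 1.53-fold with ERα17p (0.62), just past the 1.5-fold line. In the ranking of all probe sets it stood 715th from the highest with estradiol and 390th with ERα17p. With each array's median subtracted first, the estradiol difference became 0.583, just short of 1.5-fold. After quantile normalization over the 3 arrays it was 0.43 with estradiol and 0.45 with ERα17p, so that PLK1 passed 1.5-fold with neither agent.

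PLK4, the centriole kinase, stayed under 1.5-fold in all 3 probe sets and all 3 comparisons. Probe set 204886_at had -0.05 with estradiol, 0.13 with ERα17p and 0.15 on the array labelled vehicle. Probe set 204887_s_at had 0.04, 0.11 and -0.04, and probe set 211088_s_at 0.02, -0.02 and -0.07, in the same order of arrays. The differences from the array labelled vehicle ran from -0.20 to 0.09 with estradiol and from -0.02 to 0.15 with ERα17p. Probe sets ending in _s_at can take up several transcripts. PLK5, a further family member outside the 4 genes, was read by 1 probe set (1558897_at), which differed by -0.21 with estradiol and -0.03 with ERα17p.

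**Figure D1:**
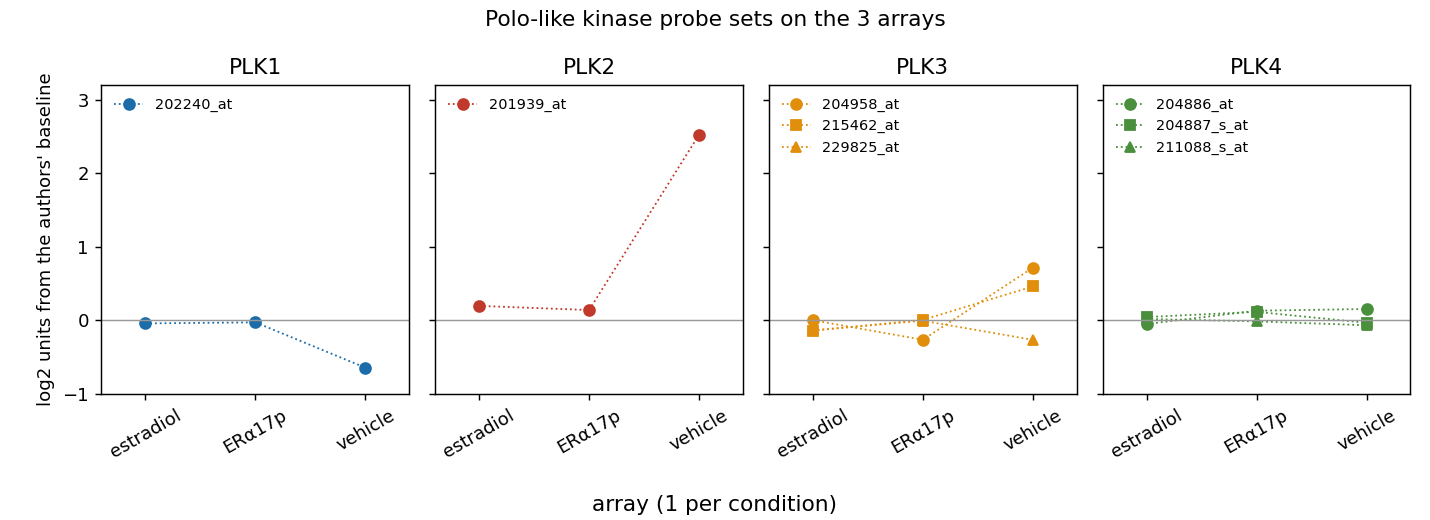
Value of each polo-like kinase probe set on the estradiol, ERα17p and vehicle arrays, in log2 units from the authors' baseline. Each point is 1 probe set on 1 array and dotted lines join the points of a probe set. PLK2 stands at 2.52 on the array labelled vehicle and near 0 on both others, PLK1 at -0.65 on the array labelled vehicle, and the 3 PLK4 probe sets stay near 0 on every array.

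Counted over the 8 probe sets, 3 were lower and 1 was higher with estradiol than on the array labelled vehicle. In the same comparison 3.4% of all 54613 probe sets were lower and 1.54% higher. With ERα17p, 2 of the 8 were lower and 1 was higher, where 2.69% of all probe sets were lower and 0.912% higher. At 2-fold, PLK2 alone was lower in each comparison, as were 0.941% of all probe sets with estradiol and 0.742% with the peptide. Since the family was proposed with these differences known, nothing is read from the counts. After quantile normalization, 1 of the 8 (PLK2) was lower and 0 higher with estradiol, and 2 were lower and 0 higher with ERα17p. Both comparisons use the same vehicle array and are not separate evidence. With the baseline in the place of that array, 0 of the 8 probe sets were lower or higher with either agent. PLK2 turned sign, to 0.19 with estradiol and 0.14 with ERα17p, and so did PLK1, to -0.04 and -0.03. The baseline is a median that these arrays helped to set. Few of all probe sets lay past 1.5-fold from it on the treated arrays (28 above and 24 below with estradiol, 26 and 16 with ERα17p). Values near 0 and their signs are therefore no separate check of the differences from the vehicle array.

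**Figure D2:**
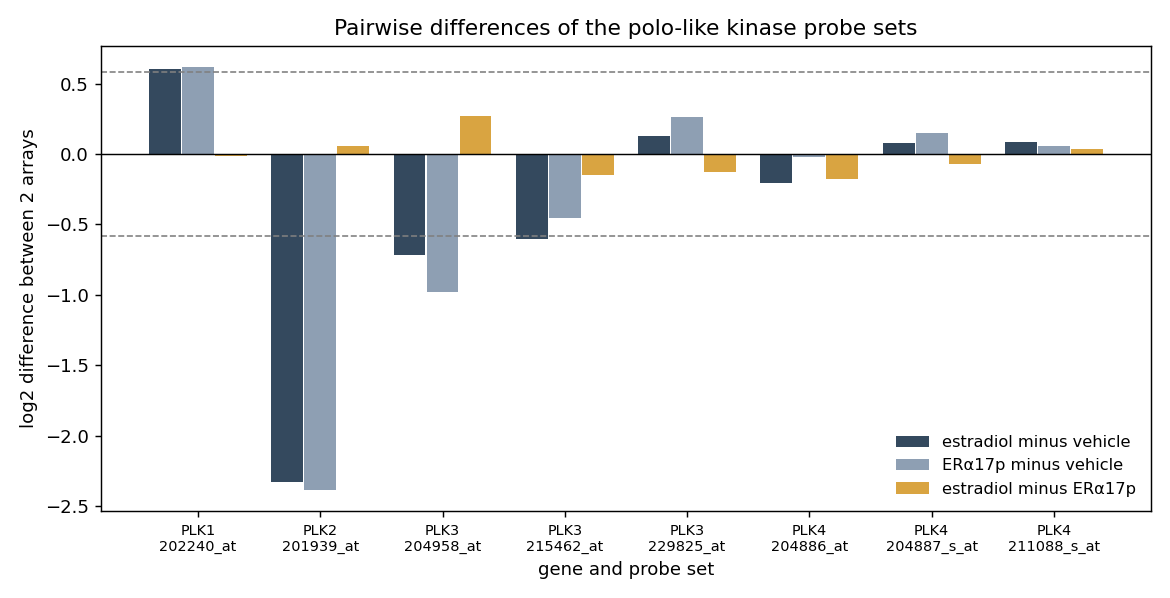
Pairwise log2 differences of the 8 probe sets, with the 3 comparisons of a probe set side by side. Dashed lines mark 1.5-fold. PLK2 lies at -2.33 and -2.38 against the array labelled vehicle, PLK1 just above the upper line at 0.60 and 0.62, and every bar of estradiol minus ERα17p lies between the lines.

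The direct comparison of the agents leaves out the array labelled vehicle. Here none of the 8 probe sets passed 1.5-fold, where 0.253% of all probe sets were lower and 0.401% higher with estradiol than with ERα17p. The widest of the 8 was PLK3 probe set 204958_at, at 0.27, or 1.20-fold higher with estradiol. The other 7 ran from -0.18 for PLK4 probe set 204886_at to 0.06 for PLK2, and PLK1 differed by -0.01. Over all probe sets this difference had a standard deviation of 0.19 log2 units. As a yardstick for single probe sets, those of the same gene spread with a pooled standard deviation of 0.18 log2 units in this comparison, 0.25 in estradiol minus vehicle and 0.22 in ERα17p minus vehicle, over 10523 genes with at least 2 probe sets. This is a spread between probes on the same arrays and not between cultures. PLK1 and PLK2, with 1 probe set each, have no such check of their own.

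**Figure D3:**
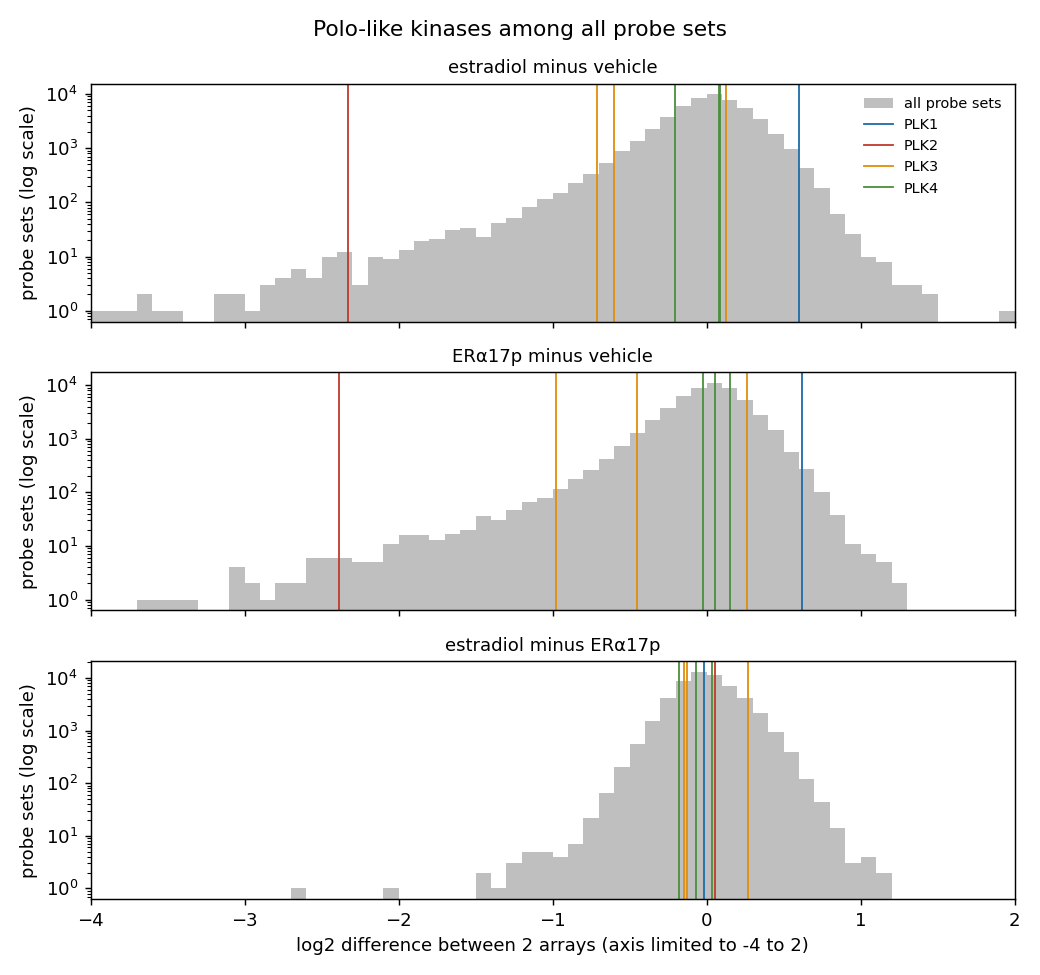
Differences of all 54613 probe sets other than controls in 3 comparisons, in bins of 0.1 log2 units, with the polo-like kinase probe sets as vertical lines and a logarithmic vertical axis. The horizontal axis runs from -4 to 2, and 11 probe sets of estradiol minus vehicle, 9 of ERα17p minus vehicle and 3 of estradiol minus ERα17p lie outside it. PLK2 lies in the sparse lower tail of both comparisons with the array labelled vehicle, and all members lie in the central mass of estradiol minus ERα17p.

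Genes that act with PLK1 lay mostly above 0 against the array labelled vehicle. In a list of 30 activators, docking partners and substrates, 26 genes lay above 0 with estradiol and 29 with ERα17p. Their median differences were 0.28 and 0.38, where the medians over all 19775 genes were 0.03 and 0.03. Past 1.5-fold, 2 of 30 were higher with estradiol, KIF23 (0.85), a motor of the central spindle, and BUB1B (0.75), a spindle checkpoint kinase, and 0 were lower. With ERα17p 4 of 30 were higher, KIF23 (0.93), BUB1B (0.81), the spindle assembly factor TPX2 (0.63) and KIF20A (0.63), a kinesin that binds PLK1 in cytokinesis, and 0 were lower. Among all genes 0.809% were higher and 2.93% lower with estradiol, and 0.582% were higher and 2.14% lower with ERα17p. BORA and AURKA, the cofactor and the kinase that activate PLK1 before mitosis, had 0.47 and 0.38 with estradiol and 0.50 and 0.39 with ERα17p, all short of 1.5-fold. The share of all genes above 0 was not counted. In lists described below, 15 of 22 G1/S, 13 of 23 centriole and 14 of 20 other kinase genes lay above 0 with estradiol. With ERα17p these were 20, 19 and 18. Of 18 regulators listed with the complexes at CHR promoters, 15 did with each agent. Few immediate early genes (2 and 1 of 28) and NF-kB targets (1 and 1 of 18) did. For p53 targets the counts were 5 and 9 of 21, and for PLK2 or PLK3 partners 6 and 9 of 14.

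The list of 25 late G2 and M genes lay above 0 in 25 of 25 cases with each agent, with medians of 0.37 for estradiol and 0.50 for ERα17p. Of them, 4 were higher with estradiol, namely PSRC1 (0.89), CCNF (0.88), MKI67 (0.60) and CDCA3 (0.59). With ERα17p 7 were higher, again with PSRC1 (0.95), CCNF (0.91), MKI67 (0.61) and CDCA3 (0.60) among them. PSRC1 encodes a spindle protein, CCNF cyclin F, MKI67 the proliferation antigen Ki-67 and CDCA3 a trigger of mitotic entry. Other mitotic and checkpoint kinases had medians of 0.20 with each agent over 20 genes. Of these 20, BUB1B alone was higher, with either agent, and MASTL, the Greatwall kinase, alone was lower, with estradiol (-0.72, against -0.42 with ERα17p). AURKB, the kinase of the chromosomal passenger complex, had 0.29 and 0.49. A list of 18 regulators covered the complexes that act on CHR and CCAAT promoters and related E2F factors. Of these 18, only the repressor E2F8, listed as a related factor, was higher (0.63 with estradiol, 0.89 with ERα17p) and 0 were lower. In that list FOXM1 and MYBL2, activators of late cell cycle genes, had 0.37 and 0.35 with estradiol and 0.43 and 0.25 with the peptide, and RBBP4, a histone-binding MuvB subunit, had 0.23 and 0.19. The medians were 0.12 and 0.12.

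For PLK4 the list of centriole genes gave 0 of 23 analysed genes higher and 0 lower with each agent, with medians of 0.06 and 0.13. Widest by the mean of both differences were CUL1 (-0.48 with estradiol, -0.35 with ERα17p), a subunit of the ligase that marks PLK4 for destruction, CCP110 (0.45 and 0.44), a cap protein of the centriole, POC5 (-0.40 and -0.40) and BTRC (0.29 and 0.27), which recognises PLK4 for that ligase. STIL, which binds and activates PLK4, had -0.15 with estradiol and 0.17 with ERα17p, SASS6, the cartwheel protein, 0.14 and 0.11, and CEP152, which recruits PLK4, 0.15 and 0.30. The 5 probe sets of CEP152 ran from -0.12 to 0.65 with estradiol. G1/S and DNA replication genes also had 0 of 22 higher and 0 lower with each agent, with medians of 0.05 and 0.10. RRM2 (0.38 and 0.43), TYMS (0.26 and 0.36), POLA1 (0.30 and 0.22) and SLBP (0.17 and 0.26) were the widest of them by that mean.

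PLK2 and PLK3 stood beside many lower early-response genes. Of 28 immediate early genes analysed, 18 were lower and 0 higher with each agent, with medians of -1.05 for estradiol and -1.03 for ERα17p. Widest by the mean of both differences were PPP1R15A (-3.03 and -2.93), ATF3 (-2.35 and -2.18), FOS (-2.02 and -2.46) and ZFP36 (-2.09 and -2.25). On the array labelled vehicle these 4 stood at 2.96, 2.28, 2.22 and 2.16, beside PLK2 at 2.52. NF-kB targets were lower in 15 of 18 analysed cases with estradiol and 16 of 18 with ERα17p, with medians of -1.83 and -1.51, and 0 were higher. After quantile normalization the medians of the immediate early genes were -0.57 and -0.58, short of 1.5-fold, and those of the NF-kB targets -1.03 and -0.59. That list was led by CXCL8 (-7.24 and -5.28), CCL20 (-7.19 and -5.83), CXCL1 (-6.41 and -5.67) and TNF (-5.38 and -4.65).

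Of 21 p53 targets analysed, 7 were lower and 0 higher with each agent, while the medians stayed at -0.13 and -0.02. The lower genes were led by the pro-apoptotic gene PMAIP1 (-3.09 with estradiol, -2.53 with ERα17p), GADD45A (-2.43 and -1.96), the cell cycle inhibitor CDKN1A (-1.98 and -1.20) and SESN2 (-1.94 and -1.73). Substrates and partners of PLK2 and PLK3 had 1 of 14 analysed genes lower with each agent, the AP-1 gene JUN (-1.72 and -1.61), and 0 higher, with medians of -0.01 and 0.06. Among the rest of them, the phosphatase gene CDC25C had 0.47 and 0.40, TOP2A 0.38 and 0.51, and TSC1, the tuberous sclerosis protein, -0.46 and -0.25. CIB1, a calcium-binding partner of PLK2 and PLK3, had 0.17 and 0.08. JUN stands in the immediate early list too, and several other genes stand in more than 1 list. With the baseline in place of the vehicle array, the medians of the 10 lists lay between -0.08 and 0.01 for estradiol and between -0.002 and 0.08 for ERα17p.

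**Figure D4:**
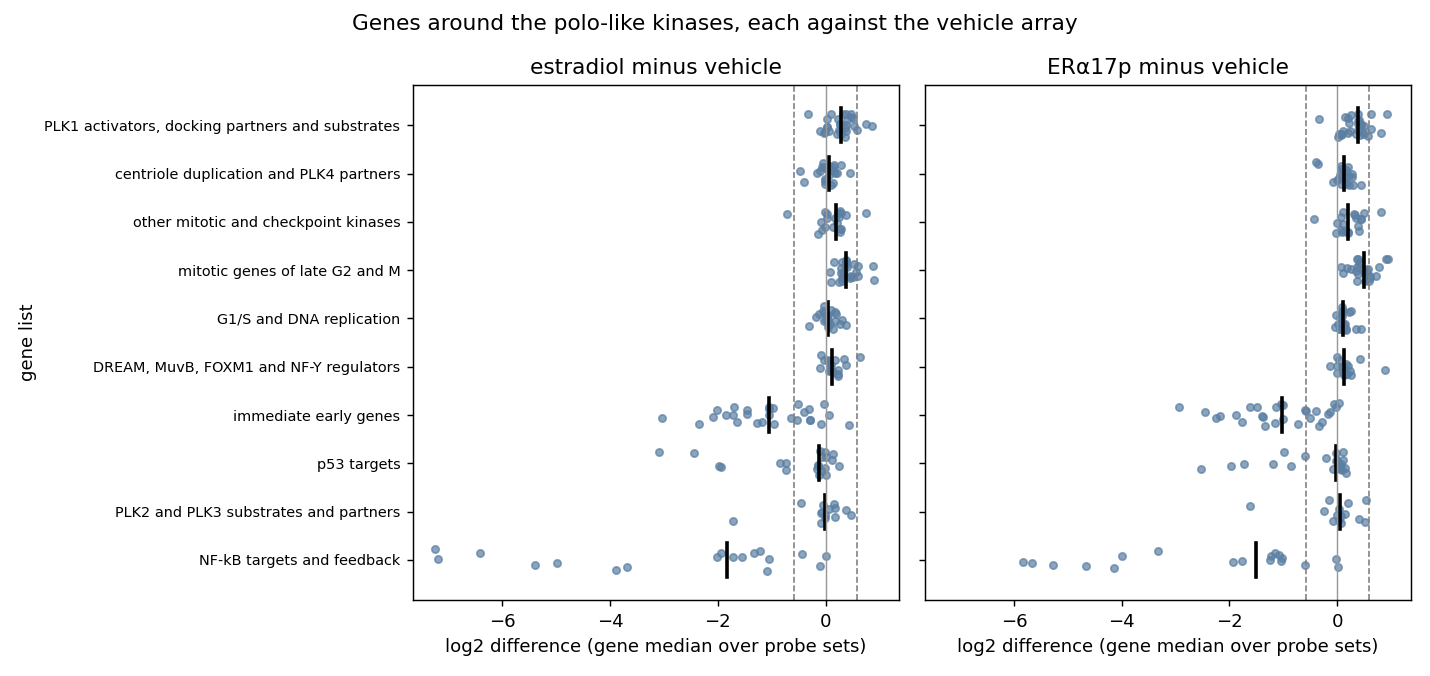
Each point is the log2 difference of 1 gene (median over its probe sets) from the array labelled vehicle, with estradiol on the left and ERα17p on the right, for 10 gene lists. Black bars are list medians and dashed lines mark 1.5-fold. Late G2 and M genes lie wholly to the right of 0, with medians of 0.37 and 0.50, and immediate early genes mostly to the left, with medians of -1.05 and -1.03.

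Between estradiol and ERα17p these lists held few differences outside the NF-kB targets. Among all genes, 0.207% were lower and 0.147% higher with estradiol than with ERα17p. In the lists of PLK1 partners, late G2 and M genes and other mitotic kinases, 0 genes passed 1.5-fold. The same held for complexes at CHR promoters with related E2F factors, centriole genes, G1/S genes and PLK2 or PLK3 partners. CDKN1A was lower with estradiol (-0.78), the only 1 of 21 p53 targets. Of 28 immediate early genes, 1 was higher, the AP-1 gene FOSL1 (0.78). Of 18 NF-kB targets, 5 were lower with estradiol and 0 higher. They were CXCL8 (-1.96), CCL20 (-1.35), TNFAIP3 (-0.98), CXCL1 (-0.74) and TNF (-0.73), the only listed genes besides CDKN1A to be lower. PLK2 and PLK3 had 0.06 and -0.13 as gene values in this comparison. Of the 3 PLK3 probe sets, 204958_at had 0.27, and 215462_at and 229825_at had -0.15 and -0.13.

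The genes most like each member were taken as the 3 nearest by Euclidean distance over the 2 differences from the vehicle array (3 arrays), among genes with at least 2 probe sets. For PLK1 they were MKI67 (distance 0.0059), which is also in the late G2 and M list, CDCA3 (0.0163) and STUM (0.0181). The 4 probe sets of MKI67 ran from 0.35 to 0.68 with estradiol. For PLK2 the nearest were PLAU (0.0897), the urokinase gene, with -2.34 and -2.30, the chemokine gene CX3CL1 (0.114), with -2.44 and -2.42, and MAFF (0.142), a small MAF transcription factor gene, with -2.20 and -2.44. Each of these has 2 probe sets, which ran from -2.69 to -1.97 over both differences. For PLK3, whose gene value joins probe sets that did not run alike, they were INO80 (0.0022), DCP1A (0.0105) and SLU7 (0.0171). These lay between -0.61 and -0.60 with estradiol and between -0.48 and -0.47 with ERα17p. For PLK4, near the centre of the distribution, they were LARP7 (0.0042), LINC02153 (0.0044) and GLDN (0.0047), each within 0.01 log2 units of it in both differences. The single probe sets of LARP7 ran from -0.02 to 0.26 with estradiol.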

How the data were processed

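RNA of SKBR3 cells was measured on 3 Affymetrix arrays, 1 each for estradiol, ERα17p and vehicle, grouped by the sample labels. RMA was the method the authors used, per the submitters' processing notes. The deposited values were read as log2, the scale that RMA yields, although no source names the base. Column medians near 0, and exact mirror images around 0 between 2 columns in 3979 of 54675 probe sets (7.28%, tolerance 1e-06), show that each probe set was centred on a median to which further arrays contributed, which were not used here. No filter on dim probe sets was possible.

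Probe sets were named by the platform annotation, updated by Entrez ID to GRCh38.p14. Of them 62 were controls, 41091 had 1 symbol, 1801 several and 11721 none here. Entrez IDs matched for 41037 of the 41091, with 0 symbols changed. Probe sets of a gene were summarised by their median (19775 genes), and differences were taken between arrays with pandas 2.3.3. With 1 array per group no test was run. On simulated data the difference step returned changes that had been added, which checks the arithmetic and not the calls near 1.5-fold. Named genes were all members, up to 4 genes of each of 10 lists with the largest absolute mean of the differences from the vehicle array, the 3 nearest genes of each member, and direct regulators. FOSL1 and the genes spelled out in counts were named after their values were seen. The members and lists were chosen with earlier results of these data known. Some listed genes were not analysed here. Alternatives were the baseline as reference, array medians or quantiles as scaling, 2-fold, the mean over probe sets, and probe sets without _s_at and _x_at. RefSeq promoters matched all 4 genes.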

Additional observations from a re-analysis of the deposited data

How the results depend on the processing

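The baseline in place of the vehicle array changed most. The treated arrays helped to set that baseline and lay near it, so that values near 0 are no separate check. Member counts became 0 lower and 0 higher with either agent. PLK1 turned to -0.044 with estradiol and -0.030 with ERα17p, PLK2 to 0.19 and 0.14, the immediate early median to 0.013 with estradiol and the NF-kB median to 0.073 with ERα17p. Probe sets lower and higher became 24 and 28 with estradiol and 16 and 26 with ERα17p, and listed genes 1 and 0, and 0 and 4, in place of 40 and 7, and 40 and 12. Quantile scaling gives all arrays the same spread, so that it narrows the array labelled vehicle and widens the others by construction. It left PLK2 lower, at -0.95 and -1.04. Member counts with estradiol became 1 lower and 0 higher, and 0 were higher with ERα17p, with PLK1 at 0.43 and 0.45. It gave 869 and 522 probe sets lower with estradiol and ERα17p, and 804 lower and 903 higher for estradiol against ERα17p (138 and 219 otherwise). Listed genes became 4 higher with estradiol, 25 lower with ERα17p and 2 higher for estradiol against ERα17p. Subtracting array medians left 0 members higher with estradiol (PLK1 0.583). At 2-fold, 1 member was lower and 0 higher with each agent, and probe sets lower and higher numbered 514 and 29, 405 and 14, and 18 and 9 in the 3 comparisons. Without _s_at and _x_at probe sets, 25 and 25 listed genes were lower with estradiol and ERα17p, and 2 lower and 2 higher between the agents. Genes with no other probe set left the lists, so these counts rest on fewer genes than those before. Beyond quantile scaling's shared spread, the centring behind the baseline and the genes left out of the lists, causes of the changes were not tested. The mean over probe sets kept all 36 list results on the same side. No paired analysis was possible because each group has 1 array. Signal over background is unknown, so faint and clearly expressed genes cannot be told apart.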
